A study of Mus musculus with 18 samples.

Results

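The expanded ATXN2 allele without human TDP-43 was read as spinal cord RNA from 6 of the 18 mice sequenced, taken by genotype label: 3 Q33 cords against 3 NTg cords. Q33 mice were heterozygous for a knocked-in human ATXN2 with a tract of 33 glutamines. NTg mice were non-transgenic C57BL/6. Both groups were aged 10 months, the labels give spinal cord as the tissue, and no treatment is named for either group. The other 12 libraries, 3 each from mice heterozygous for human ATXN2 with 22 glutamines (Q22), for human TDP-43 (TDP-43), or for TDP-43 with either ATXN2 form (Q22;TDP-43 and Q33;TDP-43), entered the same model fit, and 3 of those groups are used below as other comparisons. The locus and promoter of the knocked-in alleles, the sex and litter of the animals and the hour of dissection are not given in the sources used here. Library numbers follow the order of the records and only name a library.

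ATXN2 encodes ataxin-2, a cytoplasmic RNA-binding protein that associates with poly(A)-binding protein and with stress granules and affects the translation and stability of messenger RNA. Long expansions of its glutamine tract cause spinocerebellar ataxia type 2, and expansions of intermediate length are a risk factor for amyotrophic lateral sclerosis (ALS), a disease of motor neurons. The comparison reads the cord transcriptome of adult mice with and without the human ATXN2 knock-in that carries the expanded tract. Q33 and NTg differ in the whole knock-in as well as in tract length, so this comparison cannot set the tract apart. Tract lengths are compared in Q33 against Q22, given below. The mouse gene lacks a long tract. The stretch below is the part of the mouse transcript Atxn2-201 (ENSMUST00000051950.13, GENCODE M21, GRCm38, chromosome 5, transcript bases 478 to 519) at which the human tract lies. It is shown because it is what the 33-glutamine allele differs from. Capitals mark the glutamine codons.
Atxn2-201: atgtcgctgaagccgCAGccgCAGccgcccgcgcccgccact
It holds 2 CAG codons, which do not touch, so the longest glutamine run in it is 1.

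The 6 libraries held between 18578745 and 26329894 counts, with 27410 to 28770 genes detected, and 3 counts correspond to 0.115 to 0.157 CPM (counts of a gene scaled to a common library size). The groups were not alike in 2 properties that the labels do not give. Reads of 4 Y-linked genes summed to 175, 206 and 2.45 CPM in the Q33 libraries, against 1.92, 1.98 and 0.757 CPM in the NTg libraries, so Y-linked reads above 10 CPM were present in 2 of 3 Q33 and 0 of 3 NTg libraries. Hox10 and Hox11 family members, markers of the caudal (lumbar and sacral) cord, had a mean log2 CPM of -2.45, 2.71 and 1.95 in Q33, against -0.78, -1.97 and -1.52 in NTg. Q33 libraries 2 and 3 lay above every NTg library and Q33 library 1 below every one (exact two-sided permutation test of the means, p = 0.4, n = 3 each). The share of counts from mitochondrial ribosomal RNA was 20.4% ± 2.66 in Q33 and 17.8% ± 3.05 in NTg (SD, n = 3 each), and the groups overlapped (exact permutation p = 0.5). The smallest p that 3 against 3 libraries allow is 0.1. Fits with a term for each of these 3 properties are given below beside the main lists. Markers of the cord were as labelled: motor neuron, dorsal horn, astrocyte and myelin genes were present in all 6 libraries. The 12 forebrain and hindbrain genes summed to 7.11 to 7.93 CPM in Q33, against 6.5 to 9.1 CPM in NTg, with Otx2 at 0 in all 6.

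**Figure D1:**
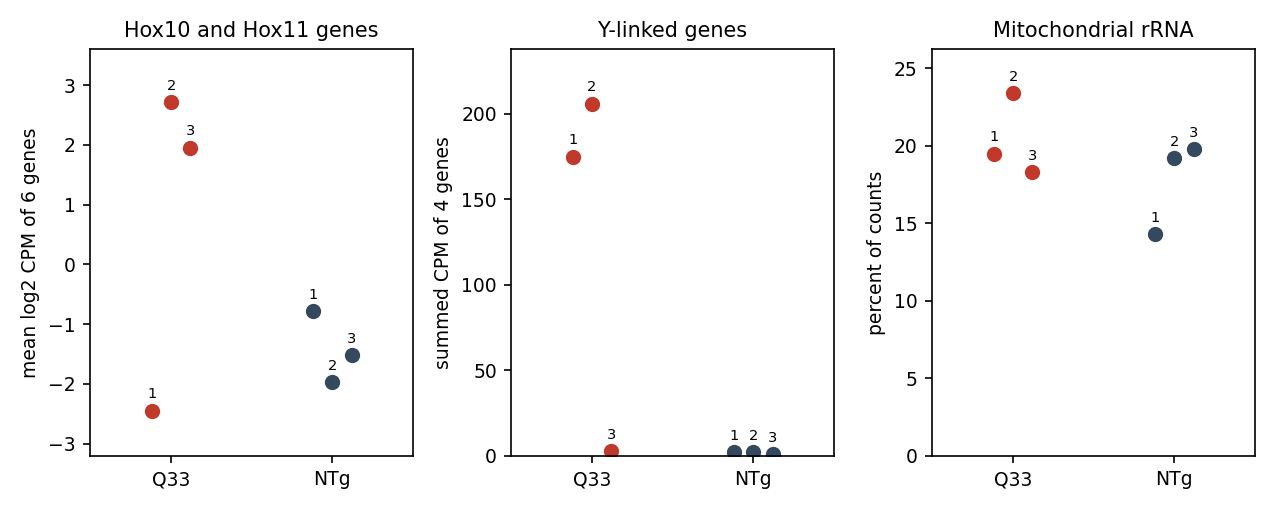
Each point is 1 library, numbered, of the Q33 (red) or NTg (dark) cords. The panels show the mean log2 CPM of 6 Hox10 and Hox11 genes, the summed CPM of 4 Y-linked genes and the percent of counts from mitochondrial ribosomal RNA. Q33 libraries 2 and 3 stand high in the Hox panel, and Q33 libraries 1 and 2 in the Y-linked panel.

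Mouse Atxn2, its paralog Atxn2l and Tardbp were read first. Atxn2 (ENSMUSG00000042605.16, mm10 chromosome 5, 121711337 to 121816493) had 175, 176 and 190 CPM in Q33, against 169, 193 and 185 CPM in NTg. The groups overlapped, and the log2 fold change was -0.02 (SE 0.08, edgeR quasi-likelihood test, adjusted p = 0.97). Its paralog Atxn2l (ENSMUSG00000032637.15, chromosome 7), which encodes a related granule protein, had 87.8, 77.1 and 80.4 CPM in Q33 and 90.9, 73.2 and 71.3 CPM in NTg, with an estimate of 0.06 (SE 0.11, edgeR adjusted p = 0.92). The sign of both estimates turned under other settings. Tardbp (ENSMUSG00000041459.15, chromosome 4), the mouse gene of TDP-43, had 122, 115 and 120 CPM in Q33, against 127, 127 and 124 CPM in NTg. All 3 Q33 libraries were below the NTg libraries, by an estimate of -0.09 (SE 0.07) that did not pass the edgeR test (adjusted p = 0.78). Counts were made on mouse genes, so they do not check the human allele.

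No gene passed the test between Q33 and NTg. Of 20635 genes tested, 0 were higher and 0 lower at an adjusted p under 0.05 (edgeR quasi-likelihood test, 0% in each direction). At an unadjusted p under 0.05 there were 1502 genes (7.28%), of which 690 were higher in Q33 (3.34%) and 812 lower (3.94%), where 1032 are expected by chance. Scaling by library totals instead of TMM factors shifts the median log2 fold change of all genes to -0.1 and the split to 261 higher and 1796 lower. DESeq2 on the same genes called 1 gene higher, Gm597 (log2 fold change 1.62, adjusted p = 0.044), and 1 lower, Dbp (adjusted p = 0.00023), with 1486 at an unadjusted p under 0.05. The Q33 libraries lay wholly above the NTg libraries for 1607 genes (7.79%) and wholly below for 1600 (7.75%). The median SE was 0.16 on the log2 scale among genes that averaged 1 CPM or more. In the same model and at the same threshold, Q33;TDP-43 against TDP-43 gave 1235 genes higher (5.98%) and 1375 lower (6.66%). The genes and lists below are therefore described by their values, and none of the differences between Q33 and NTg is a call.

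**Figure D2:**
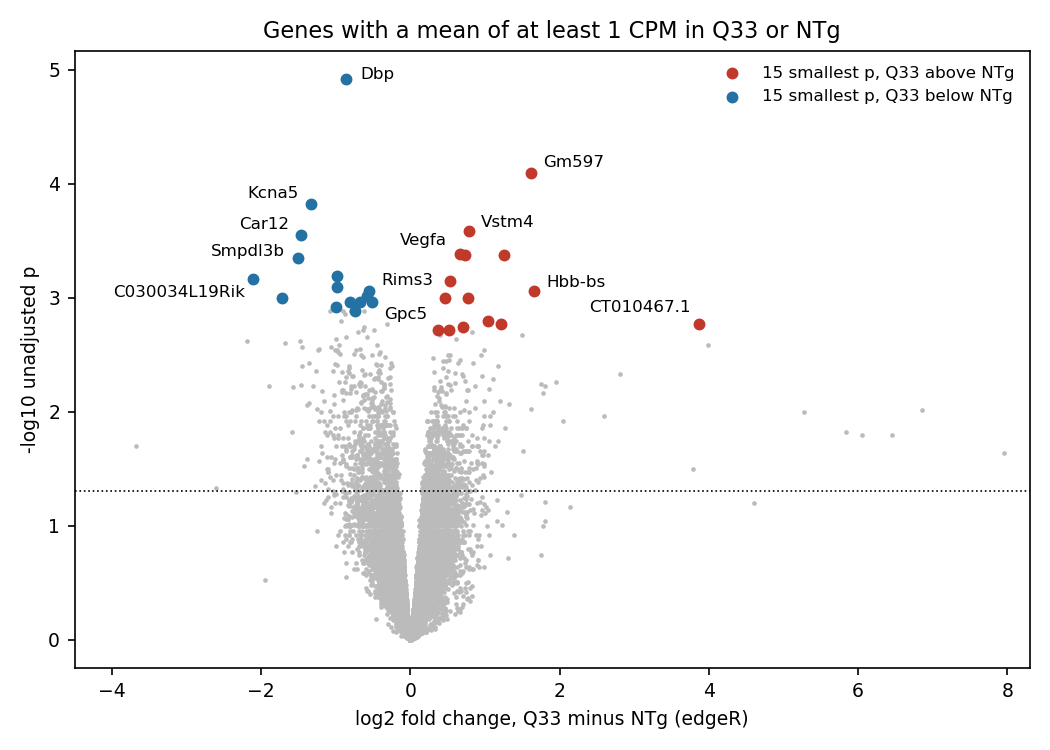
Each point is 1 gene with a mean of at least 1 CPM in Q33 or NTg. The x axis is the edgeR log2 fold change of Q33 minus NTg, the y axis the negative log10 of the unadjusted edgeR p, and the dotted line marks the 0.05 level. Coloured points are the 15 genes of smallest p in each direction; Dbp stands highest, with an adjusted p of 0.25.

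Dbp had the smallest p of all genes. It encodes a transcription factor of the PAR bZIP family, an output of the circadian clock that binds D-box elements. Dbp (ENSMUSG00000059824.12, mm10 chromosome 7, 45705088 to 45710203) had 18.2, 16.5 and 13.3 CPM in Q33, against 29.4, 28.3 and 29.7 CPM in NTg. Every Q33 library was below every NTg library, and the NTg libraries were close together. The log2 fold change was -0.87 (SE 0.15, unadjusted p = 1.2e-05, adjusted p = 0.25 in edgeR); the next gene had an adjusted p of 0.66. Dbp had 31.2, 29.6 and 30.4 CPM in Q22, so the Q33 values lay below those as well (Q33 minus Q22 -0.93, SE 0.15, edgeR adjusted p = 0.11). With human TDP-43 present, the values were 22.8, 25 and 20.8 CPM in Q33;TDP-43, against 20.1, 23.3 and 30.4 CPM in TDP-43. These overlapped, and the estimate was -0.11 (SE 0.14, edgeR adjusted p = 0.67). The test of the difference between the estimates with and without TDP-43 gave 0.76 (SE 0.21, unadjusted p = 0.0016, edgeR adjusted p = 0.25).

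Of 18 clock genes tested, 0 were called, 4 were lower at an unadjusted p under 0.05 (all genes 3.94%) and 0 were higher (all genes 3.34%). Their median log2 fold change was -0.09, beside 0 for all genes. Next to Dbp these were Per3, a period gene, Nr1d1, which encodes the repressor REV-ERB alpha, and Tef, a PAR bZIP relative of Dbp. Per3 had 42.3, 49.8 and 43.9 CPM in Q33, against 66.2, 50.5 and 59.8 CPM in NTg, which did not overlap (log2 fold change -0.38, SE 0.13, edgeR adjusted p = 0.66). Tef had 105, 116 and 96.7 CPM in Q33, against 121, 123 and 140 CPM in NTg, which also did not overlap (-0.27, SE 0.09, edgeR adjusted p = 0.66). Nr1d1 had 25.7, 25.2 and 21.4 CPM in Q33, against 24.9, 34.6 and 33.5 CPM in NTg. Here NTg library 1 lay among the Q33 libraries (-0.36, SE 0.12, edgeR adjusted p = 0.66). The activators had estimates of 0.18 for Arntl, 0 for Clock and 0.23 for Npas2, and the repressors of -0.17 for Per1, -0.18 for Per2, 0.07 for Cry1 and 0.02 for Cry2. Among Dbp, Per3, Nr1d1 and Tef, Per3 was called in the other animals. It was lower in Q33;TDP-43 than in TDP-43 (-0.5, SE 0.13, edgeR adjusted p = 0.016). Of the 18 clock genes, 3 were called lower there (all genes 6.66%) and 0 higher (all genes 5.98%).

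Dbp, Per3 and Tef had non-overlapping groups, and clock factors act at promoters. The 2 windows of Tef are not printed, and the promoters of Dbp and Per3 are shown here. They are RefSeq windows on GRCm38.p6 from 250 bases before to 50 bases after the gene start, read on the coding strand; Dbp is chr7:45704997-45705296 on the plus strand and Per3 is chr4:151044616-151044915 on the minus strand. Capitals mark a D-box, searched as TTATGTAA on both strands.
Dbp: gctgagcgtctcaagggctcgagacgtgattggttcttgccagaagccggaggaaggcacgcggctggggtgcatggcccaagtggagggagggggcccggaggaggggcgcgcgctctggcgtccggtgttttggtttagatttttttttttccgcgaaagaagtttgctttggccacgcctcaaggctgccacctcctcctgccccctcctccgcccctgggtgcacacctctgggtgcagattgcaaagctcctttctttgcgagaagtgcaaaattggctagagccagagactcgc
Per3: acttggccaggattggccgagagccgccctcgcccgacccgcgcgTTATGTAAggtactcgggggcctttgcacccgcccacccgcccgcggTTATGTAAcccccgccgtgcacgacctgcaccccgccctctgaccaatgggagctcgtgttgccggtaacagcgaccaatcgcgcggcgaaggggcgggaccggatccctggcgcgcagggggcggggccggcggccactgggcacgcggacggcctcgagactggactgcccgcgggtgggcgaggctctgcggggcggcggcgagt
The Per3 window held 2 D-box matches, at 205 and 158 bases before the start, and the Dbp window held 0. The E-box CACGTG, a palindrome searched in the same way, matched 0 times in both. In the Nr1d1 window neither motif matched, and each of the 2 Tef windows held 1 E-box. Of 32851 promoter windows of this length, 308 held a D-box (0.938%) and 2349 an E-box (7.15%). A match is a letter match in this window only.

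**Figure D3:**
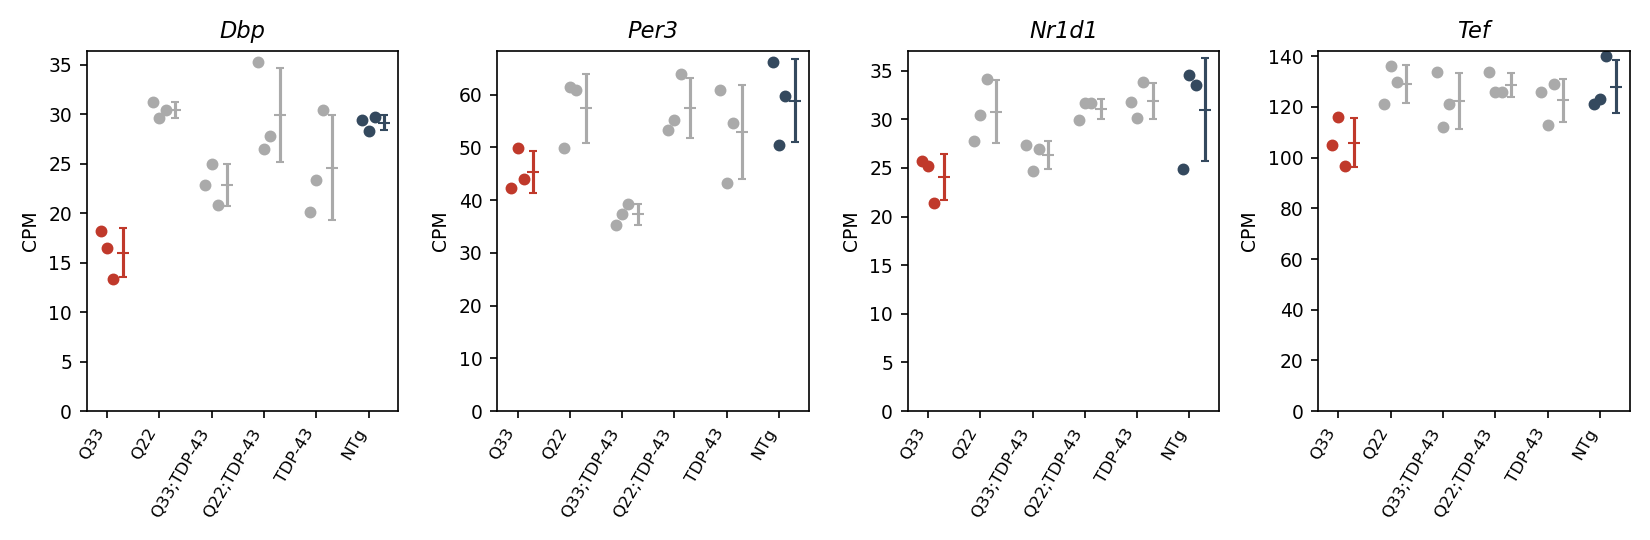
CPM of Dbp, Per3, Nr1d1 and Tef in each library of the 6 genotypes, with Q33 in red and NTg in dark; the bar beside each group is the mean and SD of 3 libraries. For Dbp the 3 Q33 libraries, at 18.2, 16.5 and 13.3 CPM, are the lowest of the 18.

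Genes of smallest p above NTg came next. The 15 with a mean of at least 1 CPM had log2 fold changes of 0.37 to 3.87 and none passed the edgeR test. All 15 had non-overlapping groups, which picking by p from the same libraries favours. In Q33;TDP-43 against TDP-43, 11 had the same sign, where 62% of all genes with that mean did. There 3 were called higher (all genes 5.98%). Vegfa, which encodes the main growth factor of blood vessels, had 56.6, 55.7 and 89 CPM in Q33, against 44.4, 42.4 and 40.2 CPM in NTg (0.66, SE 0.15, edgeR adjusted p = 0.66). Library 3 was the highest and the groups did not overlap. Its estimate with human TDP-43 was 0.02. Spry4 and Spred3, both inhibitors of receptor tyrosine kinase signalling, also had non-overlapping groups. Spry4 had 21.6, 20.6 and 29.5 CPM in Q33, against 17.5, 16.6 and 15.4 CPM in NTg (0.53, SE 0.13). Spred3 had 19.2, 15.9 and 21.6 CPM in Q33, against 15.5, 13.3 and 12.3 CPM in NTg (0.46, SE 0.12). In both, library 3 was again the highest.

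Vstm4, a gene of the immunoglobulin superfamily, had 11.1, 12.1 and 14.1 CPM in Q33, against 6.37, 7.98 and 7.43 CPM in NTg (0.78, SE 0.17, edgeR adjusted p = 0.66), and was called higher in Q33;TDP-43 against TDP-43 (0.74, edgeR adjusted p = 0.01). Cth, which encodes the cysteine-forming enzyme cystathionine gamma-lyase, had 3.38, 4.09 and 5.25 CPM in Q33, against 2.23, 2.82 and 2.45 CPM in NTg (0.77, SE 0.2); with human TDP-43 its estimate was 0.74 (edgeR adjusted p = 0.021). Gpc5, a glypican gene, had 62.1, 64.5 and 64.1 CPM in Q33, against 49.9, 50 and 47.8 CPM in NTg (0.37, SE 0.1), and 0.34 with human TDP-43 (edgeR adjusted p = 0.033). These 3 were the genes of the 15 that were called in the other animals. Ppp1r3d, which encodes a subunit that directs protein phosphatase to glycogen, had 4.71, 4.9 and 4.94 CPM in Q33, against 2.38, 2.77 and 3.65 CPM in NTg (0.73, SE 0.17), and -0.08 with human TDP-43. Gm597, the gene that DESeq2 called, had 1.97, 1.93 and 3.18 CPM in Q33, against 0.768, 0.939 and 0.623 CPM in NTg (1.61, SE 0.32, edgeR adjusted p = 0.66). The largest fold change was that of the gene model CT010467.1 on chromosome 17, with 9380, 617 and 677 CPM in Q33, against 350, 162 and 221 CPM in NTg (3.87, SE 1.05). Q33 library 1 stood far above the others there.

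The 15 genes of smallest p below NTg had log2 fold changes of 0.51 to 2.11 in size, and none passed the edgeR test. In Q33;TDP-43 against TDP-43, 14 kept their sign, beside 62% of the 16687 genes averaging 1 CPM or more in either group. There 10 of the 15 were called lower (all genes 6.66%). Car12, which encodes a membrane carbonic anhydrase, had 2.18, 2.79 and 1.3 CPM in Q33, against 5.3, 5.22 and 6.72 CPM in NTg (-1.46, SE 0.33, edgeR adjusted p = 0.66). Its groups were well apart. The estimate with human TDP-43 was -3.92 (edgeR adjusted p = 9e-05). Kcna5, a voltage-gated potassium channel gene, had 1.24, 1.89 and 1.23 CPM in Q33, against 4.53, 2.61 and 3.78 CPM in NTg (-1.33, SE 0.28), and -1.19 with human TDP-43 (edgeR adjusted p = 0.015). Met, the receptor gene of hepatocyte growth factor, had 7.19, 6.88 and 5.55 CPM in Q33, against 12.1, 13 and 13.7 CPM in NTg (-0.98, SE 0.25), and -0.84 with human TDP-43 (edgeR adjusted p = 0.034). For Kcna5 and Met, as for Car12, no Q33 library reached an NTg library.

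Rims3, a presynaptic active zone gene, had 69.2, 72.7 and 59.3 CPM in Q33, against 101, 89 and 106 CPM in NTg (-0.56, SE 0.14), and -0.92 with human TDP-43 (edgeR adjusted p = 0.0011). Rtn4rl1, a gene of the Nogo receptor family, had 7.37, 7.02 and 6.43 CPM in Q33, against 13.2, 10.2 and 11.3 CPM in NTg (-0.74, SE 0.19), and -1.59 with human TDP-43 (edgeR adjusted p = 0.00037). Tnxb, which encodes the matrix protein tenascin-X, had 8.91, 5.22 and 5.59 CPM in Q33, against 12.1, 12.6 and 14.6 CPM in NTg (-1, SE 0.26). The groups of all 3 genes were apart. Ftx, a noncoding RNA of the X inactivation centre, had 36.1, 41.4 and 39.1 CPM in Q33, against 61.5, 53.6 and 58.8 CPM in NTg (-0.58, SE 0.15). Xist, the RNA that coats the inactive X chromosome, had 3.13, 5.08 and 473 CPM in Q33, against 587, 655 and 622 CPM in NTg, so the Y-linked reads and Xist put Q33 libraries 1 and 2 apart from the other 4. For Ftx, Q33 library 3 lay with Q33 libraries 1 and 2. With Q22, which has Y-linked reads in 3 of 3 libraries, as the other group, the Ftx estimate was 0.04.

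The gene lists were then read for direction. Of 54 lists of cell type markers and pathways, 11 had no member at an unadjusted p under 0.05, 20 had such members only higher, 10 only lower and 13 both. The call count was 0 in each list in both directions. For every list below, the shares of all genes at an unadjusted p under 0.05 to set beside its counts are 3.34% higher and 3.94% lower.

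**Figure D4:**
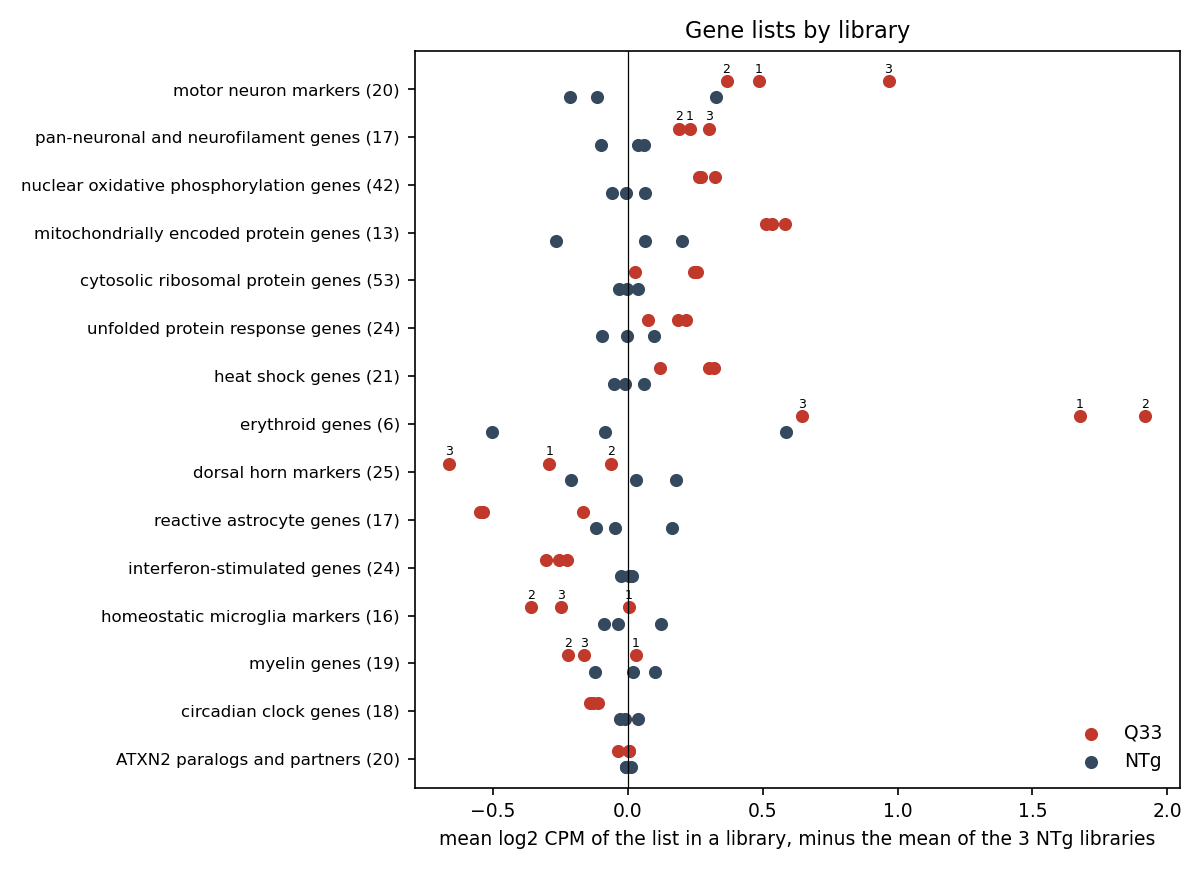
Each point is 1 library of Q33 (red, upper point of each pair; numbered where points are far enough apart) or NTg (dark, lower). The x axis is the mean log2 CPM over the list in that library minus the mean of the 3 NTg libraries, with the number of genes tested in brackets. The Q33 libraries lie above NTg for motor neuron and mitochondrially encoded genes, and below for interferon-stimulated and clock genes.

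Motor neuron markers stood highest among the neuronal lists. Of 20 tested, 8 were higher at an unadjusted p under 0.05 (all genes 3.34%), 0 lower, and 12 lay wholly above NTg (all genes 7.79%). Their median log2 fold change was 0.63, and 19 had a positive estimate. Chat, which encodes the enzyme that makes acetylcholine, had 22.2, 17.8 and 35.3 CPM in Q33, against 13.3, 23.4 and 15.2 CPM in NTg, and the groups overlapped (0.54, SE 0.29, edgeR adjusted p = 0.69). Slc18a3, the vesicular acetylcholine transporter gene, had 19.3, 14.7 and 28.8 CPM in Q33, against 10.6, 13 and 7.03 CPM in NTg, with no overlap (1.04, SE 0.42, edgeR adjusted p = 0.66). Chodl, a marker of fast motor neurons, had 45.2, 50.9 and 93.2 CPM in Q33, against 24.4, 45.8 and 26.6 CPM in NTg (0.97, SE 0.39). Mmp9, another gene of fast motor neurons, had 5.82, 6.03 and 9.46 CPM in Q33, against 3.99, 4.7 and 3.87 CPM in NTg (0.77, SE 0.31). Calcb, a calcitonin gene-related peptide gene, had 5.57, 5.22 and 12.4 CPM in Q33, against 2.88, 5.11 and 3.29 CPM in NTg (1.05, SE 0.41). Q33 library 3 was the highest library for each of these 5 genes and NTg library 2 the highest NTg library; Chodl overlapped by that library, and Mmp9 and Calcb did not overlap.

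The list's mean log2 CPM was 4.07, 3.95 and 4.55 in Q33, against 3.47, 3.91 and 3.37 in NTg. Its 8 members at an unadjusted p under 0.05 became 0 without Q33 library 3 (median 0.42), 0 without NTg library 3 (median 0.5) and 3 without NTg library 1 (median 0.6). With the Hox10 and Hox11 level as a term they became 0 (median 0.46), and with Y-linked reads as a term 13 (median 0.88). In bulk tissue, more cells of a type and more RNA per cell cannot be told apart. In Q33;TDP-43 against TDP-43 the list had a median of 0.65, with 3 members called higher (all genes 5.98%) and 0 lower (all genes 6.66%); Ret, which encodes a receptor of glial-derived neurotrophic factors, was one of them (0.62, edgeR adjusted p = 0.014) and had 88.2, 83.3 and 118 CPM in Q33, against 75.8, 78.8 and 70.2 CPM in NTg (0.36, SE 0.15, edgeR adjusted p = 0.66).

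The neurofilament genes, which encode the filaments of large axons, lay in the same direction. Of 17 pan-neuronal and neurofilament genes, 3 were higher (all genes 3.34%) and 1 lower (all genes 3.94%) at an unadjusted p under 0.05, with a median of 0.18. The 3 became 0 with the Hox term (median 0.12), 0 without Q33 library 3 (median 0.17) and 0 without NTg library 3 (median 0.12). The median was 0.08 under library totals. Nefl had 2100, 1820 and 2760 CPM in Q33, against 1640, 1420 and 1090 CPM in NTg (0.68, SE 0.27). Nefm had 1510, 1210 and 1940 CPM in Q33, against 1100, 830 and 577 CPM in NTg (0.89, SE 0.37). Nefh had 916, 750 and 1250 CPM in Q33, against 683, 475 and 343 CPM in NTg (0.96, SE 0.39). For all 3 subunits every Q33 library was above every NTg library, and the edgeR adjusted p was 0.66. All 3 subunits had their highest value in Q33 library 3 and their lowest in NTg library 3. Syt1, a calcium sensor of synaptic vesicles, had the opposite sign, with 187, 212 and 139 CPM in Q33, against 240, 211 and 252 CPM in NTg (-0.38, SE 0.15), and was lower in Q33;TDP-43 against TDP-43 (-0.81, edgeR adjusted p = 0.0042).

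Dorsal horn markers lay mostly below NTg by sign. Of 25 tested, 6 were lower (all genes 3.94%) and 1 higher at an unadjusted p under 0.05, 7 lay wholly below NTg (all genes 7.75%), and the median was -0.33. Ebf2, a transcription factor gene, had 17.2, 20.2 and 8.2 CPM in Q33, against 32.7, 21.5 and 34.5 CPM in NTg (-0.97, SE 0.36). Prrxl1, a transcription factor gene of dorsal horn neurons, had 8.78, 8.14 and 6.4 CPM in Q33, against 11.2, 10.6 and 12.6 CPM in NTg (-0.57, SE 0.23). In both genes the groups did not overlap and Q33 library 3 was the lowest. Tacr3, the neurokinin receptor gene with the smallest p of the list, overlapped: 6.64, 11.7 and 5.51 CPM in Q33, against 13.3, 10.6 and 15.2 CPM in NTg (-0.73, SE 0.25). The list's mean log2 CPM was 2.67, 2.9 and 2.3 in Q33, against 2.99, 2.75 and 3.14 in NTg, so the groups overlapped. The 6 lower members became 1 without Q33 library 3 (median -0.23), 1 without NTg library 3 (median -0.25), 5 with the Hox term (median -0.33), 4 with the Y-linked term and 3 with the mitochondrial rRNA term. With human TDP-43 the median was -1.23, and 16 of the 25 genes were called lower (all genes 6.66%).

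Among 25 voltage-gated channel genes, 5 were higher (all genes 3.34%) and 7 lower (all genes 3.94%) at an unadjusted p under 0.05, and the median was -0.01. Under library totals the counts were 1 higher and 9 lower, with the Hox term 1 and 5, without Q33 library 3 1 and 3, and without NTg library 3 1 and 4. Those above NTg included Kcna1, Kcna2, Scn8a and Scn4b, which encode channels of myelinated axons and fast-firing neurons. Kcna1 had 283, 301 and 340 CPM in Q33, against 237, 256 and 211 CPM in NTg (0.39, SE 0.12). Scn4b had 278, 316 and 320 CPM in Q33, against 233, 260 and 229 CPM in NTg (0.34, SE 0.14). Those below included Kcnd3, with 28.5, 29 and 22.3 CPM in Q33, against 44.1, 34.7 and 47.1 CPM in NTg (-0.66, SE 0.2), and Scn2a, with 129, 153 and 124 CPM in Q33, against 181, 161 and 193 CPM in NTg (-0.4, SE 0.13). Kcnd3 encodes a channel of the transient potassium current and Scn2a a sodium channel. Groups were apart for all 4. Each was called with the same sign in Q33;TDP-43 against TDP-43. The edgeR adjusted p there was 0.014 for Kcna1 (0.51), 0.0018 for Scn4b (0.86), 0.0042 for Kcnd3 (-1.04) and 0.0049 for Scn2a (-0.65). Of the 25 channel genes, 6 were called higher there (all genes 5.98%) and 9 lower (all genes 6.66%).

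Glutamate receptor genes were likewise mixed. Of 22, 2 were higher (all genes 3.34%) and 5 lower (all genes 3.94%) at an unadjusted p under 0.05, with a median of 0. Without Q33 library 3, and likewise without NTg library 3, 0 were higher and 2 lower. Grin3a, a subunit of NMDA receptors, had 63.6, 64.1 and 56.9 CPM in Q33, against 71.6, 80.3 and 78.6 CPM in NTg (-0.32, SE 0.09). The AMPA receptor gene Gria1 had 106, 107 and 99.8 CPM in Q33, against 136, 114 and 131 CPM in NTg (-0.28, SE 0.1), while Gria3 had 170, 178 and 206 CPM in Q33, against 152, 175 and 149 CPM in NTg (0.22, SE 0.09). Grin3a and Gria1 did not overlap between groups, and Gria3 did. Of 16 inhibitory neuron genes, 2 were higher and 3 lower (median -0.05), with Glra3, a glycine receptor subunit, at 34.2, 37.7 and 25.2 CPM in Q33, against 42.1, 47.8 and 52.4 CPM in NTg (-0.55, SE 0.18). GABA-A receptor subunits (12 genes) had 1 lower, Gabrg3 (-0.57, SE 0.21), and a median of -0.09.

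Among glial genes, reactive astrocyte genes lay below NTg. Of 17 tested, 7 were lower (all genes 3.94%) and 0 higher (all genes 3.34%) at an unadjusted p under 0.05, with a median of -0.36. Vim, an intermediate filament gene of reactive astrocytes, had 66.6, 47.8 and 30.8 CPM in Q33, against 73.9, 78.6 and 143 CPM in NTg (-1.03, SE 0.39). Cd44, a hyaluronan receptor gene, had 19.7, 15 and 14.6 CPM in Q33, against 28.8, 20.9 and 36.5 CPM in NTg (-0.81, SE 0.26). Cd109 had 5.05, 4.18 and 2.53 CPM in Q33, against 8.71, 12.3 and 11.9 CPM in NTg (-1.48, SE 0.42). The groups of these 3 genes were apart, with an edgeR adjusted p of 0.66. All 3 were called lower in Q33;TDP-43 against TDP-43 (Vim -1.58, Cd44 -1.97 and Cd109 -2.24). Of the 17 list genes, 1 was called higher there (all genes 5.98%) and 6 lower (all genes 6.66%). Between Q33 and NTg, the 7 lower members became 3 with the Hox term (median -0.28) and 3 with the Y-linked term (median -0.3). They became 3 without Q33 library 3 (median -0.21) and 3 without NTg library 3 (median -0.38). The median was -0.6 without Q33 library 1. The 14 general astrocyte markers had a median of -0.01; Slc7a10, a transporter gene of astrocytes, had 132, 130 and 151 CPM in Q33, against 99.3, 115 and 96.6 CPM in NTg (0.41, SE 0.14).

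Complement genes C3 and C4b, also on the reactive list, had low estimates. C3, the central component, had 70.4, 65.1 and 70 CPM in Q33, against 184, 87.8 and 211 CPM in NTg (-1.23, SE 0.51, edgeR adjusted p = 0.66). C4b had 71.6, 42.1 and 44.4 CPM in Q33, against 81.2, 96 and 118 CPM in NTg (-0.9, SE 0.37, edgeR adjusted p = 0.66). No Q33 library reached an NTg library for either gene. Of the 15 complement genes tested, 2 were higher (all genes 3.34%) and 3 lower (all genes 3.94%) at an unadjusted p under 0.05, and the median was -0.09. With the Hox term, and likewise without Q33 library 3, 0 were higher and 0 lower; with the Y-linked term 2 were higher and 0 lower. Both C3 and C4b were called lower with human TDP-43 (-2.86, edgeR adjusted p = 0.0044, and -2.33, edgeR adjusted p = 0.0022). Of the 15 complement genes, 1 was called higher there (all genes 5.98%) and 2 lower (all genes 6.66%).

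Interferon-stimulated genes lay below NTg in 22 of 24 cases by sign, since 2 estimates were positive. At an unadjusted p under 0.05, 3 were lower (all genes 3.94%) and 0 higher (all genes 3.34%), and the median was -0.26. The 3 were neighbours of the Ifit family on chromosome 19, which encode antiviral RNA-binding proteins. Ifit1 had 6.04, 6.12 and 6.97 CPM in Q33, against 8.67, 12.3 and 12.1 CPM in NTg (-0.78, SE 0.32). Ifit3 had 5.91, 5.89 and 5.36 CPM in Q33, against 8.02, 9.5 and 7.03 CPM in NTg (-0.51, SE 0.24), and Ifit2 had an estimate of -0.32 (SE 0.13). The groups were apart for all 3 genes. The 3 became 0 with the Y-linked term (median -0.05), the Hox term (median -0.16) and the mitochondrial rRNA term (median -0.13), and 0 without Q33 library 1 or without NTg library 2. With human TDP-43 it was 0.18, and no member was called in either direction.

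Homeostatic microglia markers (16 genes) had a median of -0.22 with 1 lower, the purinergic receptor gene P2ry13 (5.1, 3.87 and 4.56 CPM in Q33, against 5.87, 6.16 and 6.63 CPM in NTg). With the Hox term 0 were lower and the median was -0.1. Disease-associated microglia genes (21 genes) had 1 higher and 1 lower and a median of -0.25; the higher one was Spp1, which encodes osteopontin, at 76.9, 81.4 and 111 CPM in Q33, against 51.7, 66.4 and 51.2 CPM in NTg (0.67, SE 0.26). That median was -0.05 with the Hox term, -0.09 without Q33 library 3, -0.13 without NTg library 2 and -0.12 without NTg library 3. Myelin genes (19 genes, median -0.1) and oligodendrocyte precursor markers (12 genes, median 0) had 0 members in either direction, as had MHC genes (19 genes, median 0.04) and cytokine genes (14 genes, median -0.21). Ependymal markers (13 genes) had 2 lower and a median of -0.39, which was -0.13 without Q33 library 3, -0.21 without NTg library 1 and -0.19 with the Y-linked term.

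Vascular genes were mostly above NTg by sign. Of 14 endothelial markers, 12 had a positive estimate and the median was 0.28. At an unadjusted p under 0.05, 2 were higher (all genes 3.34%) and 1 lower (all genes 3.94%). The list's mean log2 CPM was 4.33, 4.08 and 4.28 in Q33, against 4.18, 3.65 and 4.19 in NTg. The groups overlapped and NTg library 2 was the lowest; without it the median was 0.15. Kdr, the main receptor gene of VEGF-A, had 21.5, 18.3 and 25.9 CPM in Q33, against 15.6, 8.5 and 15 CPM in NTg (0.75, SE 0.25, edgeR adjusted p = 0.66). Aplnr, the apelin receptor gene, was the one below, with 4.63, 3.73 and 3.68 CPM in Q33, against 12, 6.21 and 14.6 CPM in NTg (-1.45, SE 0.44, edgeR adjusted p = 0.66). Both genes had non-overlapping groups. Aplnr was called lower in Q33;TDP-43 against TDP-43 (-4.38, edgeR adjusted p = 0.00051). Of 9 pericyte and smooth muscle markers, 3 were higher (all genes 3.34%) and 0 lower (all genes 3.94%). Acta2, the smooth muscle actin gene, had 2.01, 2.88 and 2.49 CPM in Q33, against 1.38, 1.2 and 0.846 CPM in NTg (1.1, SE 0.35). The median of these 9 was 0.23, and 0.08 without NTg library 2.

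Genes of the respiratory chain lay above NTg. Of 42 nuclear oxidative phosphorylation genes, 40 had a positive estimate, 8 were higher at an unadjusted p under 0.05 (all genes 3.34%), 0 were lower, 22 lay wholly above NTg (all genes 7.79%), and the median was 0.26. Cox6c, a subunit of cytochrome c oxidase, had 118, 135 and 132 CPM in Q33, against 102, 85.8 and 79.3 CPM in NTg (0.53, SE 0.2). Ndufs7, a subunit of complex I, had 65.1, 61.4 and 69.4 CPM in Q33, against 48.1, 44.5 and 46.9 CPM in NTg (0.49, SE 0.19). Groups were apart for both. The 8 became 0 with the Y-linked term (median 0.21), 2 with the Hox term (median 0.19), 1 with the mitochondrial rRNA term (median 0.17, with 1 lower) and 4 under library totals (median 0.16). Leaving out 1 library gave 1 (without NTg library 3) to 14 (without NTg library 1) higher, with medians of 0.21 to 0.26. In Q22 against NTg it was 0.21 and in Q33 against Q22 it was 0.01; those comparisons share their controls or their Q33 libraries with this one.

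Of 13 protein genes of the mitochondrial chromosome, 5 were higher (all genes 3.34%), 0 lower and 8 wholly above NTg (all genes 7.79%), with a median of 0.61. mt-Atp6, a subunit of ATP synthase, had 117, 114 and 111 CPM in Q33, against 88.2, 50.5 and 34.3 CPM in NTg (0.98, SE 0.42). mt-Nd4, a subunit of complex I, had 2410, 2250 and 2270 CPM in Q33, against 2000, 1380 and 1080 CPM in NTg (0.64, SE 0.29). The Q33 libraries were close together and the NTg libraries wide apart in both. The 5 became 0 with the Hox term (median 0.54), 0 with the Y-linked term (median 0.64), 1 with the mitochondrial rRNA term and 1 under library totals (median 0.5). They became 0 without NTg library 2 (median 0.56) or 3 (median 0.42), 1 without Q33 library 1 or 2, 2 without Q33 library 3, and 7 without NTg library 1 (median 0.79). The same list had a median of 0.49 in Q22 against NTg.

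Genes of protein synthesis and turnover had small estimates that depended on the fit. Of 53 cytosolic ribosomal protein genes, 6 were higher (all genes 3.34%) and 0 lower, 41 had a positive estimate and the median was 0.18. The 6 became 0 with the Y-linked term (median 0.07), 3 higher and 1 lower under library totals (median 0.08), and 1 higher and 2 lower with the mitochondrial rRNA term (median 0.06). Rpl14 had 112, 126 and 96.1 CPM in Q33, against 79.2, 93.4 and 89 CPM in NTg (0.35, SE 0.12). Of 26 proteasome genes, 1 was higher, a share near the 3.34% of all genes. It was the core subunit gene Psmb3, with 13.3, 14.2 and 12.6 CPM in Q33, against 8.41, 10.8 and 9.88 CPM in NTg (0.47, SE 0.17); the median was 0.1, which was 0 under library totals. Rpl14 and Psmb3 had non-overlapping groups. Ribosomal protein genes have many processed copies in the genome, so their counts are uncertain.

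Chaperone genes of the endoplasmic reticulum had small positive estimates. Of 24 unfolded protein response genes, 6 were higher (all genes 3.34%) and 0 lower at an unadjusted p under 0.05, 6 lay wholly above NTg (all genes 7.79%) and the median was 0.17. Under library totals 2 were higher and 2 lower (median 0.07). Without Q33 library 3 there were 2 higher, and without NTg library 2 there were 4 (median 0.13 in both). Hspa5, the BiP chaperone gene, had 275, 280 and 353 CPM in Q33, against 251, 227 and 254 CPM in NTg (0.31, SE 0.1). Calr, the calreticulin gene, had 574, 481 and 605 CPM in Q33, against 459, 461 and 464 CPM in NTg (0.26, SE 0.1). Sdf2l1, an endoplasmic reticulum cochaperone gene, had 6.72, 5.49 and 6.86 CPM in Q33, against 4.61, 3.86 and 3.52 CPM in NTg (0.67, SE 0.2). The groups of all 3 were apart and their edgeR adjusted p was 0.66. The others were Creld2 (0.76, SE 0.25), Manf (0.3, SE 0.13) and Dnajb9 (0.24, SE 0.11). With human TDP-43 the estimates were 0.01 for Hspa5, 0.06 for Calr, -0.17 for Sdf2l1, -0.45 for Creld2, 0.05 for Manf and 0.23 for Dnajb9, and none of these 6 was called there.

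Of 21 heat shock genes, 3 were higher (all genes 3.34%) and 0 lower (all genes 3.94%), with a median of 0.15. They became 0 without Q33 library 3 or NTg library 3, and 1 with the Y-linked term or under library totals (median 0.05). Hspa8, the constitutive HSC70 gene, had 1470, 1370 and 1590 CPM in Q33, against 1220, 1310 and 1280 CPM in NTg (0.22, SE 0.1), and Bag3, a cochaperone gene of HSP70 proteins, had 35.7, 29.8 and 49 CPM in Q33, against 24.2, 30.2 and 22.3 CPM in NTg (0.58, SE 0.24). Hspa8 did not overlap between groups, whereas Bag3 did, through Q33 library 2 and NTg library 2. Of 17 immediate early genes, 1 was higher, Fos, at 10.2, 10.4 and 13.3 CPM in Q33, against 6.29, 5.58 and 10.2 CPM in NTg (0.62, SE 0.22), and the list median was 0.07. Of 15 axon injury genes, 2 were higher and 2 lower. Bdnf, a neurotrophin gene, had 4.11, 4.5 and 6.93 CPM in Q33, against 3.15, 3.34 and 3.74 CPM in NTg (0.61, SE 0.24), and Adcyap1, the gene of the neuropeptide PACAP, had 12.1, 14.7 and 9.77 CPM in Q33, against 15.8, 16 and 21.5 CPM in NTg (-0.55, SE 0.22).

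The lists closest to ataxin-2 itself held little difference. Of 20 genes of ataxin-2 paralogs and partners, 0 were higher and 1 lower at an unadjusted p under 0.05, the median was -0.03 and the estimates ran from -0.2 to 0.18. The 1 was Pabpc1, which encodes the cytoplasmic poly(A)-binding protein, with 147, 136 and 132 CPM in Q33, against 136, 167 and 173 CPM in NTg; the groups overlapped (-0.2, SE 0.1, edgeR adjusted p = 0.68). Stress granule genes (20 genes, median 0.02) and ALS genes (31 genes, median 0.05) had 0 members in either direction. Of 24 genes of the TDP-43 family and heterogeneous nuclear ribonucleoproteins, 2 were lower and the median was 0.03; the splicing regulator gene Celf1 had the smallest p, at 70.6, 71.3 and 66.7 CPM in Q33, against 84.4, 81.1 and 86.4 CPM in NTg (-0.27, SE 0.09, edgeR adjusted p = 0.66). A list of 21 long neuronal transcripts reported to be bound by TDP-43 had 1 member higher and a median of -0.03. The SE of the partner genes ran from 0.07 to 0.17.

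Other lists are given by their counts. Ventral interneuron markers (16 genes) had 2 higher and 1 lower with a median of 0.15, and synaptic vesicle genes (22 genes) had 2 higher and 3 lower with a median of 0.08 that was -0.02 under library totals. Within these, the complexin genes, which regulate vesicle fusion, had opposite signs. Cplx1 had 878, 817 and 914 CPM in Q33, against 732, 645 and 578 CPM in NTg (0.42, SE 0.15), and Cplx2 had 185, 174 and 158 CPM in Q33, against 230, 206 and 222 CPM in NTg (-0.35, SE 0.11). Groups were apart for both. Glycolysis genes (20 genes, median 0.03) and glucocorticoid response genes (13 genes, median -0.02) had 0 members in either direction. Cholesterol synthesis genes (21 genes) had 2 lower, fatty acid oxidation genes (26 genes) 1 higher and 2 lower, insulin and growth hormone signalling genes (20 genes) 2 higher, and autophagy and lysosome genes (22 genes) 1 higher, with medians of -0.03, -0.01, 0.01 and 0.06 in that order.

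Markers of other tissues were read beside these results. Erythroid genes, which mark blood left in the tissue, had 5 of 6 members higher (all genes 3.34%) and 0 lower at an unadjusted p under 0.05, with a median of 1.59. With the Y-linked term 1 was higher (median 1.01), and with the mitochondrial rRNA term 3 (median 1.24). The 7 listed genes summed to 88.5 to 229 CPM in Q33, against 30.1 to 82 CPM in NTg. Hbb-bs, a beta-globin gene, had 16.7, 19.4 and 9.19 CPM in Q33, against 4.22, 5.11 and 5.03 CPM in NTg (1.66, SE 0.42, edgeR adjusted p = 0.66). The alpha-globin gene Hba-a1 had 116, 98.6 and 42.9 CPM in Q33, against 41.5, 12.8 and 8.01 CPM in NTg (2.04, SE 0.73). Hba-a1 and Hba-a2 are near-identical copies, so their split is uncertain. With human TDP-43 the erythroid median was -1.1, with no member called. All 7 skeletal muscle genes tested had a positive estimate, 2 were higher at an unadjusted p under 0.05, and the median was 2.05. Over those that averaged 1 CPM or more in the 18 libraries it was 0.24, also the smallest of the 7 estimates. The muscle list includes Pvalb, which is also on the inhibitory neuron list, so its sum need not measure muscle RNA alone. Many values of the muscle list are near the floor of 3 counts, where a fitted fold change depends on the prior count. The largest estimate was that of Myh2, a myosin gene of fast fibres, which had 1.76, 0.315 and 0.153 CPM in Q33, against 0, 0.104 and 0 CPM in NTg. The 12 muscle genes summed to 24.8 to 35.6 CPM in Q33, against 19.8 to 28.8 CPM in NTg, dorsal root ganglion markers to 2.61 to 4.21 CPM, against 2.49 to 3.13 CPM in NTg, and Schwann cell markers to 97.2 to 108 CPM, against 97 to 107 CPM in NTg. None of the members of these 4 lists was at 0 in all 6 libraries. Their part in the results above was not tested.

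The same allele was also compared in other animals. Q33;TDP-43 against TDP-43 shares no library with Q33 against NTg, and both pairs have higher Hox10 and Hox11 levels on the Q33 side (1.76 ± 1.57 in Q33;TDP-43, against -1.77 ± 0.42 in TDP-43, mean log2 CPM ± SD, n = 3 each). The mitochondrial rRNA share was 26.1% ± 2.7 in Q33;TDP-43 and 17.7% ± 4.36 in TDP-43 (SD, n = 3 each). Y-linked reads were present in 1 of 3 Q33;TDP-43 and 2 of 3 TDP-43 libraries, against 2 of 3 Q33 and 0 of 3 NTg libraries. The part of these properties in the shared or opposite signs was not tested. Over 16687 genes that averaged 1 CPM or more in Q33 or NTg, the log2 fold changes of the 2 comparisons had a Pearson r of 0.38 and a Spearman rho of 0.35, and 62% had the same sign. These are across genes, which are not independent replicates. Of the 1327 of these genes with an unadjusted p under 0.05 in Q33 against NTg, 1107 had the same sign with human TDP-43 (83.4%), and 411 were called there (31%, against 15.1% of the 16687), 407 with the same sign and 4 with the other. The test of the difference between the estimates with and without TDP-43 called 0 genes in edgeR (0% of 20635), with 2674 at an unadjusted p under 0.05 (13%), and 118 genes in DESeq2.

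**Figure D5:**
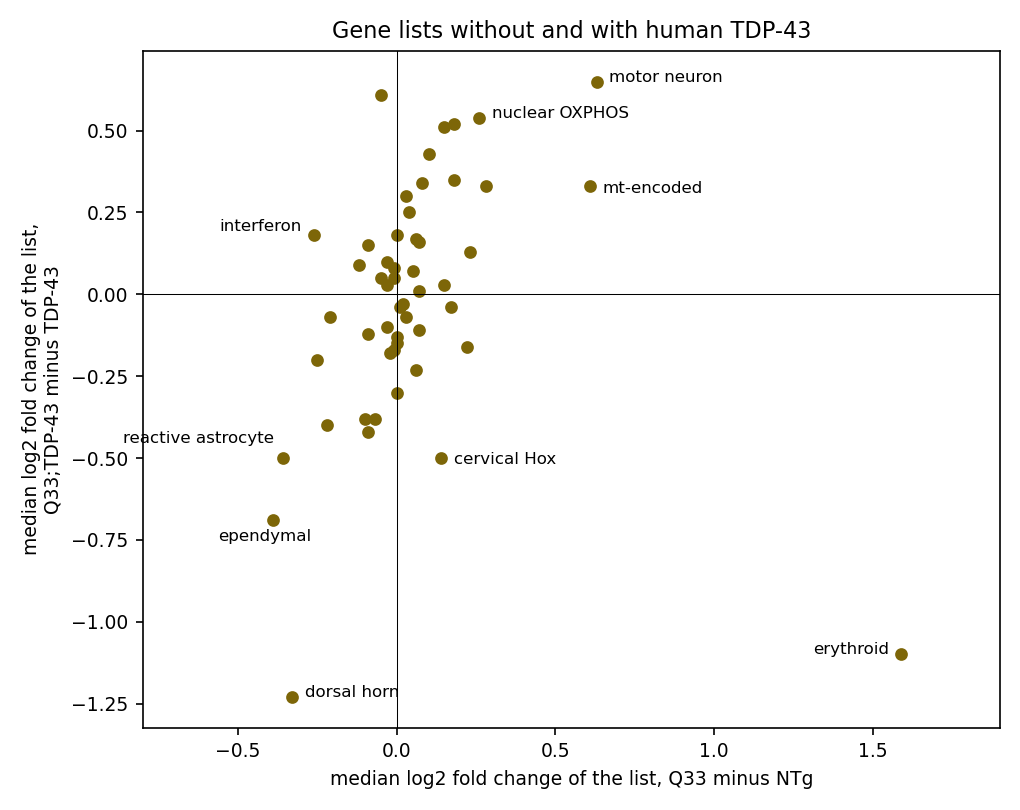
Each point is 1 gene list. The x axis is the median log2 fold change of Q33 minus NTg and the y axis that of Q33;TDP-43 minus TDP-43, from the same fit. Motor neuron markers are at 0.63 and 0.65, dorsal horn markers at -0.33 and -1.23, and erythroid genes at 1.59 and -1.1; sex-linked, lumbar Hox and skeletal muscle lists are not drawn.

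Against the shorter tract, Q33 differed from Q22 in 0 genes at an adjusted p under 0.05 (edgeR, 0% of 20635), and 442 had an unadjusted p under 0.05 (2.14%). This comparison shares the Q33 libraries with Q33 against NTg, and Y-linked reads were present in 3 of 3 Q22 libraries. The Hox10 and Hox11 level was 0.73 ± 2.79 in Q33 and -1.36 ± 1.01 in Q22 (mean log2 CPM ± SD, n = 3 each). Its part in the differences between Q33 and Q22 was not tested. Side by side, the motor neuron median was 0.63 against NTg and 0.45 against Q22, the dorsal horn median -0.33 and -0.12, the reactive astrocyte median -0.36 and -0.21, and the median of the mitochondrially encoded genes 0.61 and 0.14. For Dbp the estimates were -0.87 against NTg and -0.93 against Q22, and for Cth 0.77 and 0.88. For the neurofilament gene Nefl they were 0.68 and 0.17, and for C3 -1.23 and -0.28.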

How the data were processed

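Whole-number read counts per gene were deposited by the authors in 1 table of 54446 genes for all 18 libraries. Per the file headers, they were made with featureCounts 1.6.1 in stranded paired mode on exons of GENCODE vM19; the recorded command has no option to count reads that match several places or genes, which would undercount near-identical copies. The submitters' processing notes name Trim Galore 0.4.1, TopHat2, DESeq2 and mm10. Symbols were matched for 54409 genes (99.93%). Counts were tested with edgeR 4.0.16 (quasi-likelihood, two-sided, R 4.3.3, limma 3.58.1) with TMM scaling (factors 0.97 to 1.088 in the 6 libraries), edgeR's low-count filter, all 18 libraries in 1 fit with a term per genotype, and Benjamini-Hochberg adjustment over 20635 genes at 0.05; the 6 libraries held 18578745 to 26329894 counts. DESeq2 1.42.0 and the other alternatives are in the closing section. The steps were tested on simulated data. The mean log2 CPM of lists was taken with 2 as prior count.

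The members and lists were chosen with earlier results of these data known. Named were Atxn2, Tardbp and Atxn2l, the 15 genes of smallest p in each direction with a mean of at least 1 CPM (none passed the threshold), and the smallest p of the lists described. Chat and further list members at an unadjusted p under 0.05 were added after their values were seen, and gene models of unknown role could stay unnamed. Floors cover counting error only. Nothing in the sources used here says more of the replicates than that they are separate mice. Samples were grouped by the genotype label. 1 gene of the dorsal horn list is not reported here by name.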

Additional observations from a re-analysis of the deposited data

How the results depend on the processing

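The count of genes called between Q33 and NTg was 0 in each direction under library totals, RLE size factors, a minimum mean of 1 CPM, the 6 libraries alone, and terms for Y-linked reads, Hox level or mitochondrial rRNA share, and leaving out any 1 library gave 0 to 0 genes higher, 0 to 0 lower and 0 to 3 different between the TDP-43 backgrounds. Without a filter on low counts edgeR called 260 higher and 148 lower, and 533 for the difference between backgrounds. In that fit the prior degrees of freedom were infinite (6.21 in the filtered fit), so every gene was given the same spread, and Ddx3y, a Y-linked gene that splits the Q33 libraries, had an adjusted p of 3.6e-273. DESeq2 called 1 higher, 1 lower and 118 different between backgrounds; the cause was not tested. The 3 genes of the difference came without NTg library 1.

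The estimate of Dbp ran from -0.97 to -0.75 over the alternatives, with an edgeR adjusted p of 1.7e-07 to 0.97. The lowest came from the fit without a filter on low counts, where every gene was given the same spread. DESeq2 gave Dbp an adjusted p of 0.00023, and no other alternative gave one below 0.091. Leaving out 1 library moved the edgeR adjusted p of Dbp to 0.34 to 0.97. The number of genes at an unadjusted p under 0.05 was 1502 with all libraries. It became 831 without Q33 library 3, 806 without NTg library 3 and 2293 without NTg library 1. With the Hox term it was 1006. Atxn2 changed sign to 0.02 with the Hox term and ran from -0.07 to 0.03 (without NTg library 2) when 1 library was left out. Atxn2l changed sign to -0.05 under library totals and ran from -0.01 (without NTg library 3) to 0.18; the cause was not tested. Of the alternatives for named genes, 2717 values kept their sign and stayed on their side of the threshold, and 95 kept their sign and passed it. All 95 came from the fit without a filter on low counts or from DESeq2, which called only Dbp and Gm597. Of the list medians, 733 moved by less than the spread between libraries and 92 by more.

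Depth limits genes near the floor of 0.115 to 0.157 CPM. The comparison is also limited by 3 libraries a group with unequal Hox level and Y-linked reads, each high in 2 of 3 Q33 libraries. No paired analysis was possible because replicate numbers were given in record order and the labels pair no animals.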
